A study of Mus musculus with 24 samples.

Results

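Serpins are the genes described here, taken as the rows of the deposited polyA table whose symbol begins with Serpin. The table held 63 such rows among 23998. Of the 62 described here, 50 were above 0 in at least 1 library and 20 reached a mean of 1 FPKM (fragments per kilobase of transcript, scaled to the fragments mapped) over the 13 libraries. These 20 genes were tested among 12980 that reached the same mean. The libraries came from the hearts of 13 transgenic mice on a CD1 background, taken at 4 months. A transgene of human MYL2, the gene of the ventricular regulatory light chain of myosin, was present in every animal by the labels, and the genotype field of the labels reads RLC-47K L6 for every one. The sample names separate a normal transgene (wtTg, called wild type here) from a mutated one (mutTg, called mutant). In 3 of the groups the virus AAV9, an adeno-associated virus used for gene delivery, had been given through the jugular vein at 3 days of age. The 4 groups were wild type with control virus (replicates 2, 3 and 4), mutant without virus, called untreated (9, 10 and 11), mutant with control virus (1, 2 and 3) and mutant with the virus carrying the M7.8L shRNA (5, 6, 7 and 8). The control virus was AAV9 without that shRNA, and each library came from 1 animal. The promoter of the transgene is not named in the labels.

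Most serpins inhibit serine proteases. The protease cuts an exposed loop of the serpin and is then held in a covalent complex, so that each serpin molecule is used up. Some members of the family inhibit no protease and act as chaperones or secreted factors. In the heart, serpins are known as regulators of plasminogen activation and of matrix turnover, as inhibitors of complement and coagulation, as acute phase proteins, and as intracellular guards against leaked proteases. All results are for RNA of heart tissue, where a change in the number of cells of a type and a change in RNA per cell cannot be told apart.

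Several facts about the libraries bear on each comparison. The row hMyl2, named for the human gene, stood at 0 in 10 libraries, although every animal is labelled as carrying that gene, and its values in shRNA replicates 5, 6 and 7 were 229, 420 and 317 FPKM. The row shRNA held only zeros. Six3 was at most 0.0913 FPKM in the wild-type hearts and in shRNA replicates 5 to 7, between 13.6 and 27.6 FPKM in the other mutants, and 60.6 FPKM in shRNA replicate 8. This library thus stood apart from its group, and "labelled shRNA" is written for the group. By the Y-linked gene Ddx3y, the 3 mutants with control virus and shRNA replicate 8 were female and shRNA replicates 5 to 7 were male, while wild-type and untreated hearts held 2 males and 1 female each, so sex moved with the groups. Wild-type replicate 3, read as male (Ddx3y 39.4 FPKM), also had 8.31 FPKM of the X-inactivation gene Xist. Other males had at most 0.965 FPKM of Xist and females at least 37.5 FPKM, and the source of this signal was not tested. Between the mutants with control virus and shRNA replicates 5 to 7, sex and treatment cannot be told apart from these 6 hearts alone, and with replicate 8 left out a sex covariate rests on the wild-type and untreated hearts. Library medians of log2 values differed by -0.54 (untreated replicate 10) to 0.80 (shRNA replicate 8) from their mean. Each result is therefore given as deposited and, where it differs, after shifting the libraries to a common median over genes above 0 in every library (aligned) and with shRNA replicate 8 left out.

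Serpinh1 and Serping1 had the highest levels per length of transcript, with means over 13 libraries of 388 and 249 FPKM. Serpinh1 encodes the collagen chaperone HSP47 and Serping1 the C1 inhibitor of complement. Next came the intracellular inhibitors Serpinb6a (178 FPKM) and Serpinb6b (96.6 FPKM), the secreted factor Serpinf1 (95.2 FPKM), the acute phase inhibitor Serpina3n (59.4 FPKM) and the thrombin inhibitor Serpine2 (34.7 FPKM). The remaining tested genes ran from Serpinb9 (20.0 FPKM) through Serpinb1c, Serpina3h, Serpini1, Serpinb1a, Serpina3g, Serpina3c, Serpinb8, Serpina1b, Serpinb9b, Serpina3i and Serpina3k to Serpina3f (1.08 FPKM). By the letter of the symbol, clade A held 25 rows of which 8 were tested, clade B 27 rows of which 7 were tested, while clades E, F, G, H and I gave 1 tested gene each.

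Rows under the mean were sparse. In clade B 10 rows and in clade A 2 rows were listed at 0 in every library. Of the others, Serpind1, Serpina1c, Serpina1d, Serpina1e, Serpinc1, Serpinf2 and Serpina4-ps1 reached 1 FPKM in at least 1 library. In the RefSeq order of genes, 24 clade A members from Serpina10 to Serpina3n are neighbours, and 8 of them were tested. The clade B members form a run of 15 from Serpinb1a to Serpinb6a with 6 tested and a run of 12 from Serpinb5 to Serpinb8 with 1 tested, Serpinb8. Serpina3h and Serpina4-ps1 are annotated as transcribed pseudogenes. The Serpina1, Serpina3, Serpinb1, Serpinb6 and Serpinb9 families hold near-identical copies, and the handling of reads that match several copies was not given in the sources used here. Values are thus uncertain in their split between copies.

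Serpin RNA took a larger part of the FPKM total in each of the 6 mutant hearts without the shRNA than in any wild-type heart. Summed over the 62 rows, it was 0.0765%, 0.0878% and 0.0774% of the FPKM total in wild-type hearts, 0.175%, 0.187% and 0.185% in untreated mutants and 0.165%, 0.224% and 0.174% in mutants with control virus. In hearts labelled shRNA it was 0.0598%, 0.0632% and 0.0564% in replicates 5 to 7 and 0.153% in replicate 8. The wild-type hearts and shRNA replicates 5 to 7 all lay below the other libraries. The FPKM totals themselves differed, from 580948 in untreated replicate 10 to 1701500 in shRNA replicate 6. Summed serpin values were close in those hearts, at 1085 and 1076 FPKM, so a share moves with the total as well as with serpin RNA. These sums weigh the abundant genes most and are given as a description, without a test.

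**Figure D1:**
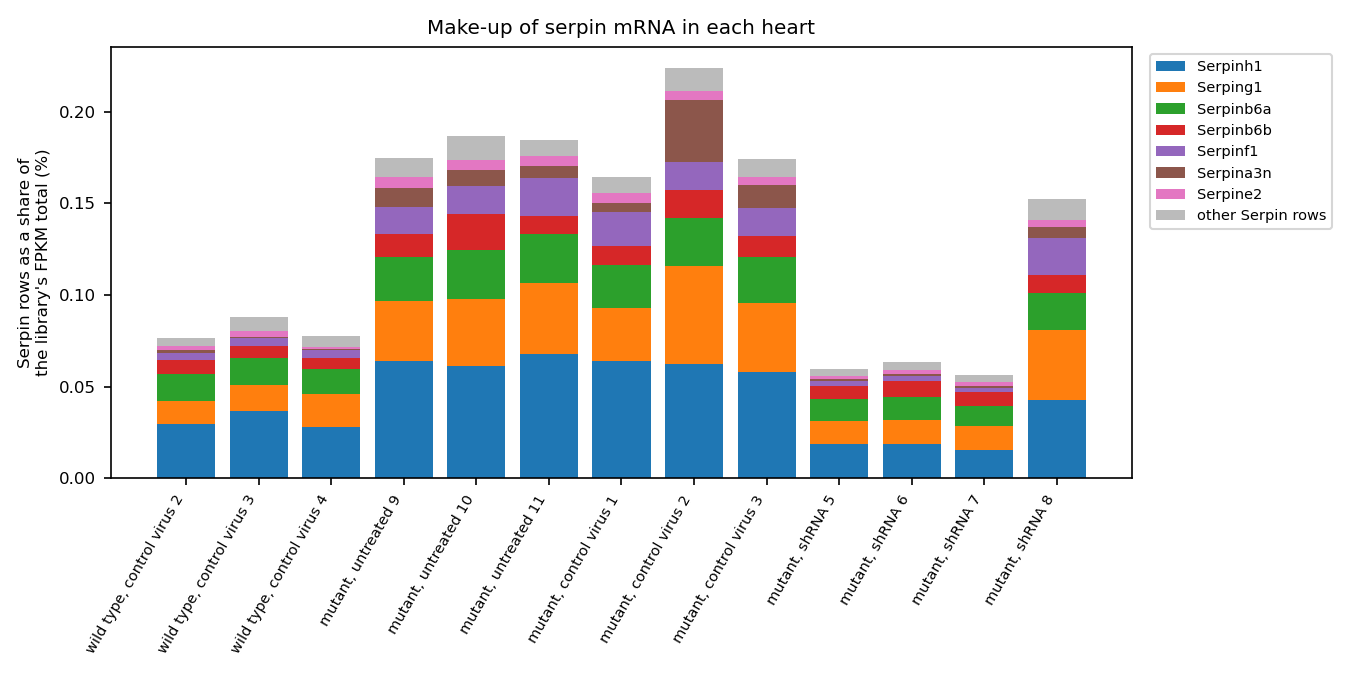
Serpin RNA in each of the 13 hearts as a share of the library's FPKM total in percent, stacked by gene. Bars of wild-type hearts and of shRNA replicates 5 to 7 end between 0.0564% and 0.0878%, those of the other libraries between 0.153% and 0.224%.

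Mutant and wild-type hearts under the same control virus were compared first. Serpina3n was higher in the mutant and Serpina1b was lower, and the other 18 members did not pass at an adjusted p under 0.05 (limma, two-sided). Thus 1 of 20 serpins rose and 1 fell, beside 2.15% of all tested genes that rose and 7.35% that fell. With the libraries aligned 10 serpins rose and 1 fell, beside 12.6% and 11.7% of all genes. Aligned and without shRNA replicate 8, 14 rose and 1 fell, beside 19.5% and 20% of 12853 genes. That library is in neither group and enters this comparison through the shared spread, the filter on the mean and the alignment. Without it, Serpina3f, Serpina3i and Serpinb9b reached the mean of 1 FPKM only through the mutants with control virus, and Serpina1b only through wild type. Calls of these genes are thus not independent of the filter. The median log2 difference of the 20 members was 0.70 as deposited, against -0.14 over all tested genes, and 0.83 against -0.01 aligned without replicate 8.

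In the mutant, hearts labelled shRNA were set against those with control virus. Serpina3n was lower with the label and Serpina1b and Serpini1 were higher. Thus 1 of 20 serpins fell, beside 1.66% of all genes, and 2 rose, beside 33.4% of all genes. The median log2 difference was 0.47 over all genes and -0.16 over the members as deposited, and 0.0046 and -0.64 aligned. Aligned, 10 serpins fell and 0 rose, beside 12.2% and 11.9% of all genes. Aligned and without replicate 8, 12 fell and 0 rose, beside 23.7% and 24.5%, with a member median of -0.77 against 0.01 over all genes. Both comparisons rest on the same 3 mutant hearts with control virus, so their values for a gene are not independent of each other.

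**Figure D2:**
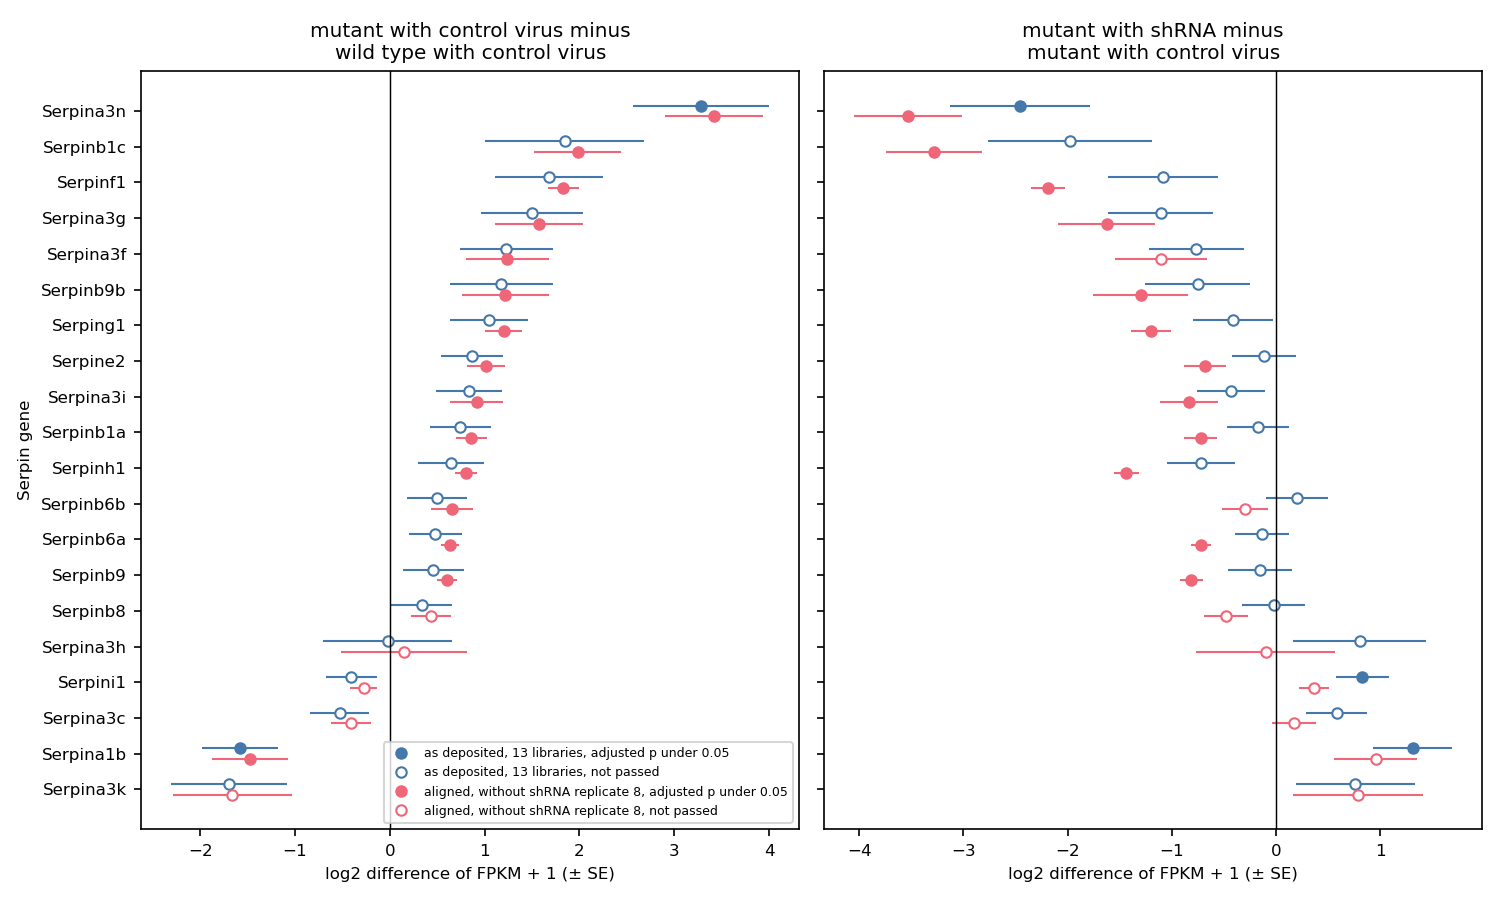
Log2 difference of FPKM + 1 with its SE for the 20 tested serpins in mutant against wild-type hearts (left) and hearts labelled shRNA against control virus (right). Blue points are the values as deposited over 13 libraries, red points those aligned without shRNA replicate 8, and filled points passed at an adjusted p under 0.05, as Serpina3n does in all 4 cases.

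Serpina3n had the largest log2 difference of the members in both comparisons. It encodes a secreted inhibitor related to human alpha-1-antichymotrypsin and is known as an acute phase gene. Its level was 14.3, 8.89 and 6.88 FPKM in wild-type hearts, 82.0, 50.1 and 40.6 FPKM in untreated mutants, and 36.3, 330 and 88.0 FPKM in mutants with control virus. Every mutant value without the shRNA was above every wild-type value, and control-virus replicate 2 lay far above its group. In hearts labelled shRNA it was 7.29, 12.2 and 12.3 FPKM in replicates 5 to 7, within the wild-type range, and 84.2 FPKM in replicate 8. On the log2(FPKM + 1) scale it was 9.73-fold higher in mutant than in wild-type hearts (log2 difference 3.28, SE 0.72, adjusted p = 0.0123). With the shRNA label it was 5.49-fold lower than with control virus (log2 difference -2.46, SE 0.67, adjusted p = 0.0109) and 11.6-fold lower aligned without replicate 8 (adjusted p = 0.000116). No call was made for the mutant difference with no filter on low values (adjusted p = 0.0532) or robust eBayes (0.0686), or for the difference with the shRNA label with robust eBayes (0.0602). Without control-virus replicate 2 the fall with the shRNA label no longer passed (log2 difference -1.62, adjusted p = 0.0600). With sex as a covariate neither difference passed (log2 2.86, adjusted p = 0.0625, and -1.98, adjusted p = 0.0561), and both did with sex as a covariate and without replicate 8 (3.71, adjusted p = 6.94e-07, and -3.83, adjusted p = 7.91e-06).

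The promoters of Serpina3n, Serpinf1 and Serpinh1 are printed as examples of genes lower in shRNA replicates 5 to 7 than in every mutant heart without the shRNA. Serpinb1c and Serpinb9b were lower in the same way, and their promoters are not printed. Each printed window is the 250 bases before the annotated start, from RefSeq on GRCm38.p6, 5′ to 3′ on the strand of the gene. Matches to CAGAC on either strand are in capitals.
Serpina3n, chr12:104406458-104406707, plus strand: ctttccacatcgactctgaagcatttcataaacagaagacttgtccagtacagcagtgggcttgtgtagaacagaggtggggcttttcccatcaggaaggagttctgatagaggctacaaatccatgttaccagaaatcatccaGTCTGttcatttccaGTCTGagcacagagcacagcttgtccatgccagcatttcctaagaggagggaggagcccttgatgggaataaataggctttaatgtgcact
Serpinf1, chr11:75422624-75422873, minus strand: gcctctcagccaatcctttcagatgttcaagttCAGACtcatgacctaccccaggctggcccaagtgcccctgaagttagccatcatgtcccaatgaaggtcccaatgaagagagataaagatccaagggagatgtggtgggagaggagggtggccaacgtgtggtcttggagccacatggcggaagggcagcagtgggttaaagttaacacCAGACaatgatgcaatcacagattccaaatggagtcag
Serpinh1, chr7:99353240-99353489, minus strand: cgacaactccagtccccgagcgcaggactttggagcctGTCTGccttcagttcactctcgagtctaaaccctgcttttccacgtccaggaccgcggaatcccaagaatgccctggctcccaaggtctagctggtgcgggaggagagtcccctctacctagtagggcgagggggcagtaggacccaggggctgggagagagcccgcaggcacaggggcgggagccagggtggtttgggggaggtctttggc
The letters CAGAC, known as a SMAD box, matched 2 times in the Serpina3n window, with first bases 106 and 91 bases before the start. They matched 2 times for Serpinf1, 217 and 38 bases before the start, and 1 time for Serpinh1, 212 bases before it. Of 32851 promoter windows of this length 42.2% held at least 1 match. The STAT palindrome TTCNNNGAA (7.02% of windows), both orders of a heat shock element, GAANNTTC (6.69%) and TTCNNGAA (7.17%), and the E-box CACGTG (6.02%), searched on both strands, had 0 matches in these 3 windows. Matches of different motifs can overlap, and a match describes letters only. Of the 20 tested members 16 had a promoter in the RefSeq table.

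The other tested Serpina3 genes had lower mean levels per length than Serpina3n. Serpina3g, an intracellular inhibitor of cysteine cathepsins, was 1.52, 0.658 and 1.65 FPKM in wild-type hearts, 3.23, 1.51 and 1.54 FPKM in untreated mutants, and 2.54, 19.4 and 2.48 FPKM with control virus. It was 1.16, 1.06, 1.90 and 4.68 FPKM in hearts labelled shRNA, with replicate 8 again the highest. Serpina3f was 7.01 FPKM in control-virus replicate 2 and at most 1.68 FPKM in any other heart. Serpina3i ran from 0.486 to 1.04 FPKM in wild type and from 1.10 to 2.67 FPKM in mutants with control virus. None of these 3 passed between mutant and wild type as deposited (Serpina3g adjusted p = 0.0840, Serpina3f 0.121, Serpina3i 0.142), and each did aligned without replicate 8 (2.98-fold, adjusted p = 0.0172, 2.36-fold, 0.0394, and 1.89-fold, 0.0197). Serpina3f reached the mean of 1 FPKM only through the mutants with control virus (group mean 2.78 FPKM, at most 0.747 FPKM in the other groups). The same held for Serpina3i once replicate 8 was left out, so the rise of both is not independent of the filter. With sex as a covariate and without replicate 8, Serpina3g passed and Serpina3f and Serpina3i did not. With sex and all libraries kept none of them passed.

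Serpina3h showed another pattern. It was 1.87, 4.53 and 12.5 FPKM in wild-type hearts, 7.93, 4.93 and 5.74 FPKM in untreated mutants, 7.96, 0.748 and 12.1 FPKM with control virus, and 5.94, 5.55, 6.61 and 31.6 FPKM in hearts labelled shRNA. Its lowest value was thus in the heart where Serpina3n was highest. Serpina3c was between 1.43 and 4.18 FPKM in all hearts, with ranges that overlapped in the main comparisons. Neither Serpina3h nor Serpina3c passed in any of the 6 comparisons as deposited or aligned without replicate 8. In other settings Serpina3h was higher with the shRNA label than with control virus with sex as a covariate (adjusted p = 0.0425). Serpina3c was higher in that comparison without shRNA replicate 5 (0.0181), and lower with the label than in untreated mutants at equal FPKM totals (0.0443). Serpina3n made up 26.5% to 64.7% of the summed FPKM of Serpina3 rows in wild-type hearts, 79.2% to 82.5% in untreated mutants and 72.2% to 91.3% with control virus. Its share was 40.7%, 46.9% and 48.4% in shRNA replicates 5 to 7 and 64.7% in replicate 8.

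**Figure D3:**
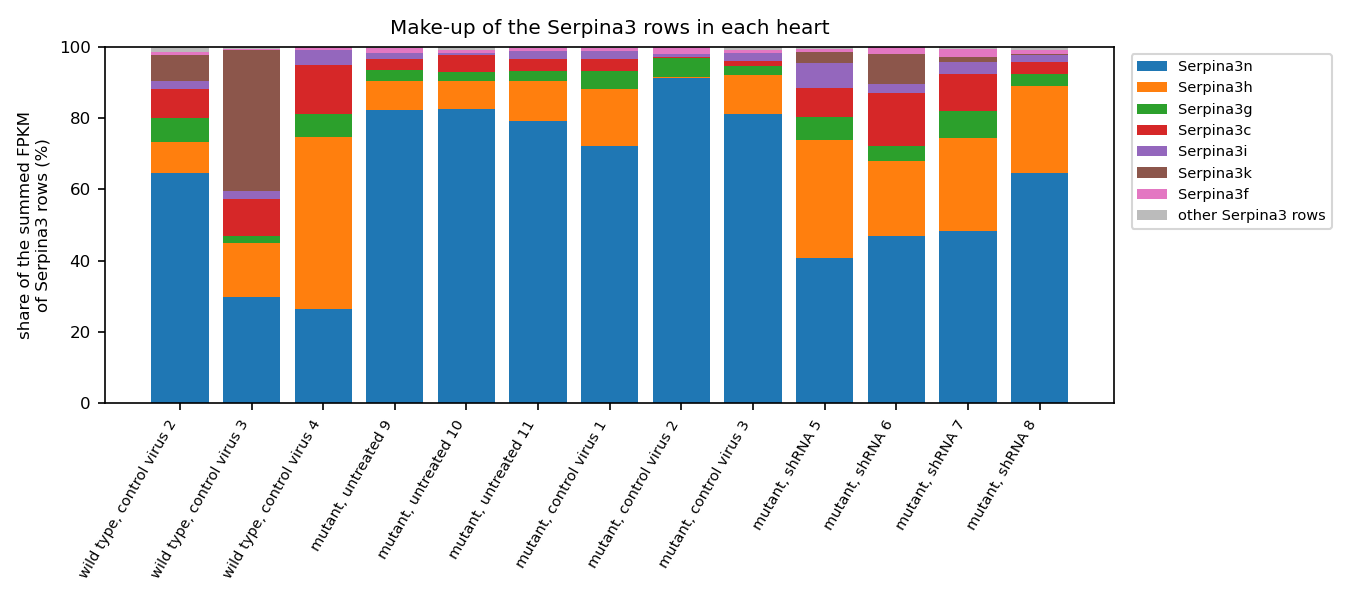
Share of each Serpina3 gene in the summed FPKM of the Serpina3 rows in each heart, in percent. Serpina3n takes 72.2% or more in the 6 mutant hearts without the shRNA and 64.7% or less in the other 7, Serpina3h is large in wild-type replicate 4, and Serpina3k is large in wild-type replicate 3.

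Control-virus replicate 2 was high in other genes of the acute phase list. Timp1, an inhibitor of metalloproteases, was 154 FPKM there against 31.6 and 61.2 FPKM in the other hearts with control virus. The pentraxin Ptx3 was 8.74 FPKM against 1.20 and 3.19 FPKM, and serum amyloid Saa3 was 14.6 FPKM against 1.18 and 6.29 FPKM. For Serpina3n the mutant difference still passed without it (log2 difference 2.44, adjusted p = 0.0413).

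Serpine2 encodes protease nexin-1, an inhibitor of thrombin and of plasminogen activators. It was 19.7, 31.5 and 14.7 FPKM in wild-type hearts, 48.4, 34.3 and 31.5 FPKM in untreated mutants, 39.3, 49.1 and 30.7 FPKM with control virus, and 21.2, 39.9, 35.6 and 55.6 FPKM in hearts labelled shRNA. The wild-type and control-virus groups overlapped through wild-type replicate 3. The mutant difference did not pass as deposited (1.82-fold, adjusted p = 0.104) and passed aligned without replicate 8 (2.02-fold, adjusted p = 0.00173). In that setting Serpine2 fell 1.60-fold with the shRNA label (adjusted p = 0.0147), against 1.08-fold as deposited (adjusted p = 0.783). With sex as a covariate and without replicate 8 the mutant difference passed and the fall with the label did not. With sex and all libraries kept neither passed (mutant against wild type log2 0.90, adjusted p = 0.244).

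Genes for the proteases, receptors and cofactors that meet these inhibitors were read from a list of 54, of which 32 were tested. Between mutant and wild type 4 rose and 2 fell as deposited, with a list median of 0.44 against -0.14 for all genes, and 15 rose and 3 fell aligned without replicate 8. The shares of all genes were 2.15% and 7.35%, then 19.5% and 20%, so the 2 genes of 32 that fell are near the share of all genes. Tissue plasminogen activator, Plat, was 14.7 ± 2.29 FPKM in wild-type hearts and 24.1 ± 4.63 FPKM with control virus (SD, n = 3 each) and did not pass as deposited (1.59-fold, adjusted p = 0.198). Urokinase, Plau, was 8.46 ± 3.23 and 5.24 ± 1.48 FPKM and did not pass (adjusted p = 0.311). Vitronectin, Vtn, an adhesive protein of plasma and matrix, was lower in the mutant (log2 difference -1.26, adjusted p = 0.0139) and 2.83-fold higher with the shRNA label (adjusted p = 0.00102). Vldlr, a receptor that takes up complexes of serpins and proteases, was 2.25-fold lower (adjusted p = 0.00980) and 2.78-fold higher (adjusted p = 0.000596). The thrombin receptor F2r (adjusted p = 0.232), the urokinase receptor Plaur (0.371) and the clearance receptor Lrp1 (0.522) did not pass between mutant and wild type as deposited. The collagen-degrading cathepsin Ctsk and the membrane protease St14 were 3.00-fold and 4.91-fold higher in the mutant (adjusted p = 0.0235 and 0.0263).

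The list of the TGF-beta axis and its targets held 23 tested genes, of which 6 rose and 0 fell in the mutant as deposited. In aligned values without replicate 8, 19 of 22 rose and 0 fell. Of all genes 2.15% rose and 7.35% fell as deposited, and 19.5% and 20% did in the second setting. Ctgf was 85.7 ± 31.2 FPKM in wild-type hearts and 893 ± 299 FPKM with control virus (SD, n = 3 each), a 10.3-fold difference (adjusted p = 0.00897). Thbs1 (5.89-fold, adjusted p = 0.00453), Postn (9.19-fold, 0.0147) and Tgfb2 (6.53-fold, 0.0218) also rose. Under the shRNA label 7 of 23 fell and 0 rose as deposited, and 17 of 22 fell aligned without replicate 8, beside 1.66% and 23.7% of all genes that fell.

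**Figure D4:**
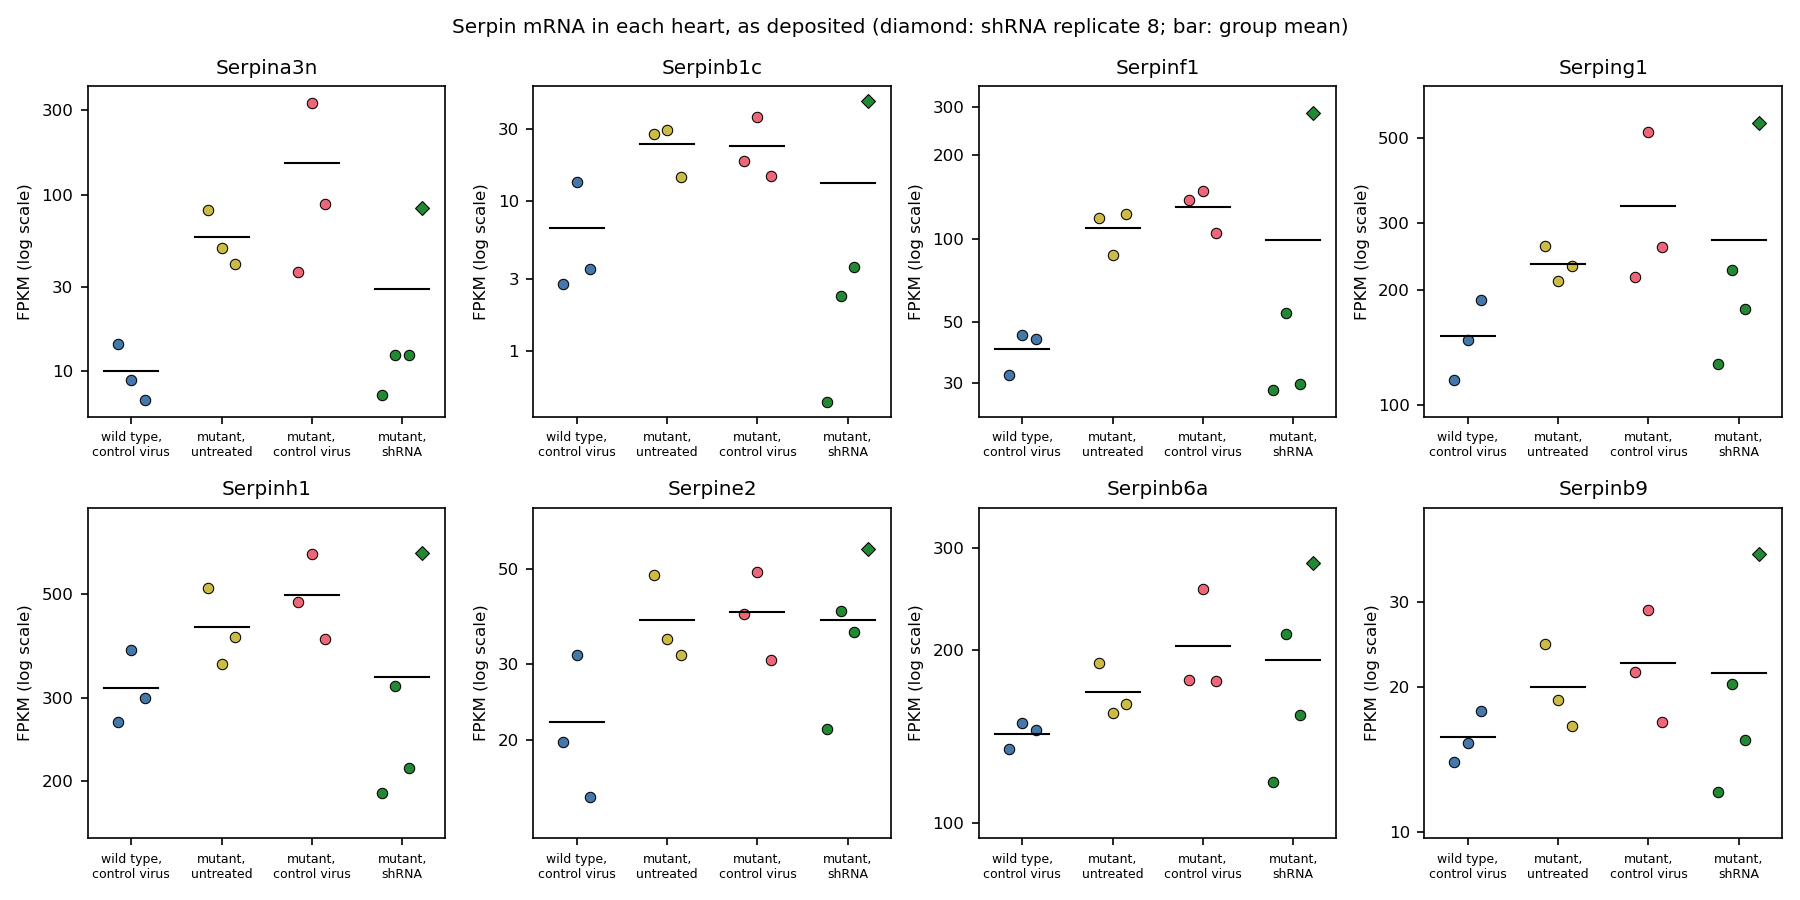
Level of 8 serpins in each heart in FPKM on a log axis, with group means as bars and shRNA replicate 8 as a diamond. Replicate 8 lies above the other 3 hearts labelled shRNA in every panel, and control-virus replicate 2, at 330 FPKM for Serpina3n, is the highest of its group in all 8.

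Serpinf1 encodes pigment epithelium-derived factor, a secreted serpin that inhibits no protease. It was 32.1, 44.8 and 43.4 FPKM in wild-type hearts, 118, 87.0 and 123 FPKM in untreated mutants, and 138, 149 and 105 FPKM with control virus. In hearts labelled shRNA it was 28.4, 54.0 and 29.7 FPKM in replicates 5 to 7 and 285 FPKM in replicate 8. All 6 mutant hearts without the shRNA were above all wild-type hearts and above shRNA replicates 5 to 7. The difference between mutant and wild type did not pass as deposited (3.20-fold, log2 difference 1.68, SE 0.57, adjusted p = 0.0688), and aligned without replicate 8 it did (3.56-fold, 1.83, SE 0.16, adjusted p = 5.26e-06). Against control virus it was lower with the shRNA label by 2.12-fold as deposited (adjusted p = 0.114) and fell 4.57-fold aligned without replicate 8 (adjusted p = 6.07e-07). Neither difference passed with sex as a covariate and all libraries kept (mutant against wild type log2 0.87, adjusted p = 0.399). With sex as a covariate and without replicate 8 both passed (log2 1.53, adjusted p = 0.00137, and -1.59, adjusted p = 0.00406).

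Serpinh1 holds newly made procollagen in the endoplasmic reticulum while it folds. It was 267, 380.5 and 299.8 FPKM in wild-type hearts, 514, 355 and 405 FPKM in untreated mutants, 482, 608 and 402 FPKM with control virus, and 189, 318, 213 and 611 FPKM in hearts labelled shRNA. As deposited, untreated and wild-type hearts overlapped while control-virus and wild-type hearts did not. Aligned, the levels were 280 to 364 FPKM in wild type, 516 to 560 FPKM in untreated mutants, 508 to 556 FPKM with control virus, 170.5 to 222 FPKM in shRNA replicates 5 to 7 and 352 FPKM in replicate 8. In aligned values the 6 mutant hearts without the shRNA lay within a narrow range, above all others. The mutant difference was 1.57-fold as deposited (adjusted p = 0.259) and 1.74-fold aligned without replicate 8 (adjusted p = 0.000193). Serpinh1 was with the shRNA label 1.65-fold lower as deposited (adjusted p = 0.0925) and 2.71-fold lower aligned without replicate 8 (adjusted p = 1.15e-06). Once sex was a covariate and replicate 8 was left out, the mutant difference did not pass (log2 0.70, adjusted p = 0.203) and the difference with the shRNA label did (-1.15, adjusted p = 0.0471). With sex and all libraries kept neither passed.

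Of 31 tested genes for collagens and collagen folding, 9 rose and 0 fell in the mutant as deposited, and 23 rose and 1 fell aligned without replicate 8, beside the same shares of all genes (2.15% and 7.35%, then 19.5% and 20%). Col3a1 was 62.0 ± 11.9 FPKM in wild-type hearts and 409 ± 100.2 FPKM with control virus (SD, n = 3 each), 6.48-fold higher (adjusted p = 0.00453). Col1a1 (4.91-fold, adjusted p = 0.0122), Col1a2 (3.41-fold, 0.0227) and the prolyl hydroxylase Leprel1 (6.95-fold, 0.00979) rose as well. In hearts labelled shRNA 4 of 31 fell and 2 rose against control virus as deposited, and 25 fell and 2 rose aligned without replicate 8. All genes gave 1.66% that fell and 33.4% that rose, then 23.7% and 24.5%.

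Serping1 encodes the inhibitor of the complement proteases C1r and C1s and of plasma kallikrein. It was 117, 148 and 189 FPKM in wild-type hearts, 261, 211 and 231 FPKM in untreated mutants, 217, 519 and 259 FPKM with control virus, and 128, 226, 179 and 547 FPKM in hearts labelled shRNA. Mutant hearts without the shRNA were all above wild-type hearts, and the 2 highest values were in control-virus replicate 2 and shRNA replicate 8. The mutant difference was 2.07-fold (adjusted p = 0.119) as deposited and 2.30-fold aligned without replicate 8 (adjusted p = 0.000358). With the shRNA label it was 1.33-fold lower (adjusted p = 0.401) as deposited and fell 2.30-fold aligned without replicate 8 (adjusted p = 0.000238). Neither passed with sex as a covariate and without replicate 8 (log2 0.88, adjusted p = 0.117, and -0.58, adjusted p = 0.394). Of 17 tested complement genes 1 rose in the mutant as deposited, the complement regulator Cd55 (3.30-fold, adjusted p = 0.0226), while 13 rose and 2 fell aligned without replicate 8, beside 2.15% of all genes that rose as deposited and 19.5% that rose and 20% that fell aligned. Set against control virus, 2 fell and 1 rose with the shRNA label as deposited, and 14 fell and 1 rose aligned without replicate 8, where all genes gave 1.66% and 33.4%, then 23.7% and 24.5%.

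Clade B serpins stay inside the cell. Serpinb1c belongs to the family of leukocyte elastase inhibitors. It was 2.79, 13.3 and 3.49 FPKM in wild-type hearts, 27.6, 29.6 and 14.3 FPKM in untreated mutants, 18.4, 36.2 and 14.7 FPKM with control virus, 0.457, 2.31 and 3.64 FPKM in shRNA replicates 5 to 7 and 46.2 FPKM in replicate 8. All mutant hearts without the shRNA were above all wild-type hearts, although wild-type replicate 3 came within 1 FPKM of the lowest. The mutant difference was 3.59-fold (adjusted p = 0.175) as deposited and 3.95-fold aligned without replicate 8 (adjusted p = 0.00455). Against control virus it was 3.94-fold lower with the shRNA label as deposited (adjusted p = 0.0581) and 9.70-fold lower aligned without replicate 8 (adjusted p = 8.42e-05). Neither passed with sex as a covariate and all libraries kept (mutant against wild type log2 1.23, adjusted p = 0.490). Both passed with sex as a covariate and without replicate 8 (adjusted p = 0.000172 and 1.18e-06).

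Serpinb1a, the close relative of Serpinb1c, was 2.67, 2.56 and 2.83 FPKM in wild-type hearts, 3.04, 2.48 and 2.81 FPKM in untreated mutants and 4.26, 7.15 and 4.51 FPKM with control virus. It was 2.84, 5.61, 2.79 and 8.42 FPKM in hearts labelled shRNA. The mutant difference under control virus passed aligned without replicate 8 (1.82-fold, adjusted p = 0.00112), not as deposited (1.68-fold, adjusted p = 0.149). With sex as a covariate, with or without replicate 8, that difference did not pass. Untreated and wild-type hearts overlapped, and between them it did not pass as deposited or aligned without replicate 8 (adjusted p = 0.954 and 0.138). Between control virus and no virus the groups did not overlap as deposited, and the difference did not pass (1.64-fold, adjusted p = 0.771).

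Serpinb6a, whose human counterpart inhibits cathepsin G, had the highest level of clade B. It was 134, 149 and 145 FPKM in wild-type hearts, 190, 155 and 161 FPKM in untreated mutants, 177, 255 and 176 FPKM with control virus, and 118, 213, 154 and 282 FPKM in hearts labelled shRNA. Aligned, it ran from 136 to 144 FPKM in wild type, from 200.1 to 226 FPKM in untreated mutants, from 202 to 232 FPKM with control virus, and from 123 to 163 FPKM in all 4 hearts labelled shRNA. In aligned values replicate 8 was the highest of the 4 and still below every other mutant heart. The mutant difference passed aligned with all libraries (1.55-fold, adjusted p = 0.00804), and so did the fall with the shRNA label (1.56-fold, adjusted p = 0.00974). As deposited neither passed (1.40-fold, adjusted p = 0.304, and 1.10-fold lower, adjusted p = 0.697). Neither did with sex as a covariate, with or without replicate 8.

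Serpinb6b was 70.5, 66.8 and 68.1 FPKM in wild-type hearts, 103, 116 and 58.9 FPKM in untreated mutants, 78.5, 148 and 79.0 FPKM with control virus, and 73.9, 142, 103 and 146 FPKM in hearts labelled shRNA. It rose in the mutant aligned without replicate 8 (1.57-fold, adjusted p = 0.0323) and in that setting did not pass with the shRNA label (1.23-fold lower, adjusted p = 0.294). Serpinb9, an inhibitor of granzyme B, was 14.0, 15.3 and 17.8 FPKM in wild-type hearts, 24.5, 18.8 and 16.6 FPKM in untreated mutants, 21.4, 28.9 and 16.9 FPKM with control virus, and 12.1, 20.3, 15.5 and 37.7 FPKM in hearts labelled shRNA. Its groups overlapped as deposited (1.38-fold in the mutant, adjusted p = 0.407). It was, aligned without replicate 8, 1.52-fold higher in the mutant (adjusted p = 0.000705) and 1.76-fold lower with the shRNA label (adjusted p = 5.01e-05). Serpinb9b, its copy, was at most 0.670 FPKM in wild-type hearts and shRNA replicates 5 to 7 and from 0.717 to 5.27 FPKM in the other hearts. Once replicate 8 was left out, it reached the mean of 1 FPKM only through the mutants with control virus. It passed in these 2 comparisons aligned without replicate 8 (2.33-fold, adjusted p = 0.0498, and 2.46-fold, adjusted p = 0.0323), calls that are not independent of that filter. Serpinb8, between 1.24 and 4.31 FPKM, passed in neither. With sex as a covariate, with or without replicate 8, Serpinb6b, Serpinb9 and Serpinb9b passed in neither of these comparisons.

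Serpini1 encodes neuroserpin, an inhibitor of tissue plasminogen activator made by neurons. It was 7.52, 6.62 and 8.71 FPKM in wild-type hearts, 4.24, 4.35 and 3.96 FPKM in untreated mutants, 5.08, 7.29 and 4.39 FPKM with control virus, and 6.80, 13.2, 9.45 and 14.0 FPKM in hearts labelled shRNA. As deposited, untreated mutants lay below all other groups, and shRNA replicate 8 was high together with its group. In aligned values untreated mutants (4.48 to 6.31 FPKM) overlapped with control-virus mutants (5.55 to 6.66 FPKM). Replicate 8 was then 8.08 FPKM, within the wild-type range (6.33 to 8.15 FPKM). With the shRNA label Serpini1 rose as deposited 1.78-fold against control virus (log2 difference 0.83, SE 0.25, adjusted p = 0.0188) and 2.22-fold against untreated mutants (1.15, SE 0.25, adjusted p = 0.00147). In aligned values without replicate 8 the first was 1.29-fold (adjusted p = 0.0512) and the second 1.41-fold (adjusted p = 0.0118). The first also missed the threshold without control-virus replicate 1 or 3 or shRNA replicate 6 (adjusted p from 0.0633 to 0.108), aligned with all libraries (0.0599), with only the groups compared (0.0781) and with sex as a covariate and without replicate 8 (0.153). Both missed it at equal FPKM totals (adjusted p = 0.482 and 0.259). Between mutant and wild type under control virus it did not pass as deposited (1.32-fold lower, adjusted p = 0.377) or aligned without replicate 8 (adjusted p = 0.147). Markers of Schwann cells and neurons, 10 genes with Th at 0 in every library, summed to 15.3 to 20.9 FPKM in wild type, 11.6 to 18.2 in untreated mutants, 15.2 to 41.7 with control virus and 16.2 to 33.0 in hearts labelled shRNA, and their part in the result was not tested.

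Serpina1b and Serpina3k are known as products of the liver, Serpina1b as a form of alpha-1-antitrypsin. Serpina1b was 0.799, 6.74 and 2.86 FPKM in wild-type hearts, 0.404, 0.725 and 0.536 FPKM in untreated mutants, and 0, 0.163 and 0.727 FPKM with control virus. In hearts labelled shRNA it was 1.92, 1.85, 1.76 and 3.19 FPKM. As deposited, all mutant hearts without the shRNA were below wild-type hearts and hearts labelled shRNA, replicate 8 included. In aligned values they stayed below hearts labelled shRNA but overlapped with wild-type hearts. There untreated replicate 10 (1.05 FPKM) and control-virus replicate 3 lay above wild-type replicate 2 (0.855 FPKM). As deposited, Serpina1b was lower in mutant than in wild-type hearts (2.99-fold on the log2(FPKM + 1) scale, log2 difference -1.58, SE 0.40, adjusted p = 0.0223). It was higher with the shRNA label than with control virus (2.48-fold, 1.31, SE 0.38, adjusted p = 0.0141). The added 1 makes up much of such low values and shrinks these folds. The mutant difference lost its call without wild-type replicate 3 (log2 difference -1.06, adjusted p = 0.126) and without wild-type replicate 4 or control-virus replicate 1 or 2 (adjusted p from 0.0539 to 0.101). It was lost as well with no filter on low values (0.0534) and with sex as a covariate (0.0625), and held with sex and without replicate 8 (0.00723). The rise with the shRNA label lost it without control-virus replicate 1 (adjusted p = 0.0710), and it missed the threshold aligned with all libraries (0.0675) or without replicate 8 (0.0650), at equal FPKM totals (0.0904), and with sex as a covariate and without replicate 8 (0.0934).

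Serpina3k was 1.63, 11.9 and 0 FPKM in wild-type hearts and was listed at 0 in all 6 mutants without the shRNA, while hearts labelled shRNA had 0.586, 2.22, 0.369 and 0.179 FPKM. It did not pass between mutant and wild type as deposited (adjusted p = 0.0854) or aligned without replicate 8 (adjusted p = 0.0509). Antithrombin, Serpinc1, was 2.34 FPKM in wild-type replicate 3 and at most 0.216 FPKM elsewhere. Serpina1c was highest in shRNA replicate 6 (3.44 FPKM) and wild-type replicate 3 (2.30 FPKM), and the same 2 hearts had the highest values of Serpina1d (1.04 and 1.78 FPKM). Serpinf2, the inhibitor of plasmin, was 1.50 FPKM in wild-type replicate 3 and at most 0.482 FPKM elsewhere. In that heart Serpina4-ps1 was 1.05 FPKM and Serpina1e 1.20 FPKM, the latter below shRNA replicate 6 (1.94 FPKM). Serpind1, heparin cofactor II, was between 0.126 and 1.29 FPKM.

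Albumin and Apoa1, defining genes of hepatocytes, were also highest in wild-type replicate 3 and next highest in shRNA replicate 6. Albumin, Alb, was 2.71, 66.3 and 0.251 FPKM in wild-type hearts, at most 0.177 FPKM in the mutants without the shRNA, 1.26, 13.4 and 4.77 FPKM in shRNA replicates 5 to 7 and 0 in replicate 8. Apoa1 was 18.5 FPKM in wild-type replicate 3 and 7.11 FPKM in shRNA replicate 6, and Ttr was 6.75 FPKM in wild-type replicate 3 and at most 1.33 FPKM elsewhere. Over 17 hepatocyte markers, of which 8 were tested and Mup1 was at 0 in every library, the sum was 209 FPKM in wild-type replicate 3. Its range was 31.0 to 209 FPKM in wild type, 43.5 to 54.6 in untreated mutants, 32.8 to 67.9 with control virus, 38.5 to 104 in shRNA replicates 5 to 7 and 130.4 in replicate 8, the highest of its group. Trf, singled out after its values were seen, made up 121 FPKM of the sum in replicate 8. In that heart 10 of the 17 markers were at 0, Alb and Apoa1 among them. Trf was 24.8 to 42.6 FPKM in wild type, 38.2 to 49.3 in untreated mutants and 28.9 to 53.3 with control virus. Sums in mutants without the shRNA were thus mostly Trf and say little of the other markers. In these mutants Apoa1 was at most 0.259 FPKM, while Ahsg was 1.86 to 9.27 FPKM. The part of hepatocyte RNA in the differences of Serpina1b and Serpina3k was not tested.

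**Figure D5:**
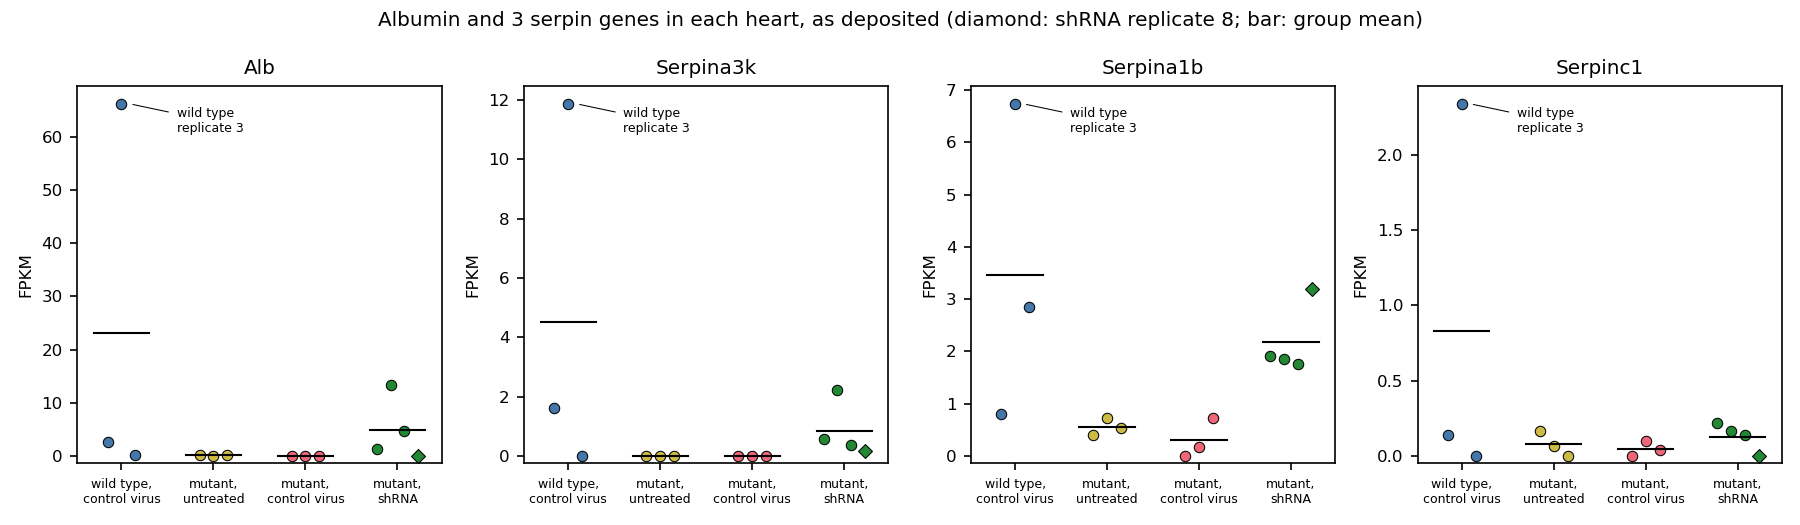
FPKM of the hepatocyte gene Alb and of Serpina3k, Serpina1b and Serpinc1 in each heart, with group means as bars and shRNA replicate 8 as a diamond. Wild-type replicate 3 is the highest heart in each panel, at 66.3 FPKM for Alb and 6.74 FPKM for Serpina1b.

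Between control virus and no virus in the mutant 0 of 20 serpins passed by limma, with 1 at an unadjusted p under 0.05, as did 0 of all genes (0%) with 572 at an unadjusted p under 0.05. After alignment without replicate 8, 0 serpins passed, beside 0.0467% of all genes. At an unadjusted p under 0.05 there were 2 serpins, beside 2180 of 12853 genes. Between hearts labelled shRNA and wild type 0 serpins passed as deposited, beside 0.108% of all genes. Here 2 serpins had an unadjusted p under 0.05, beside 2026 of 12980 genes. Aligned without replicate 8, 1 serpin passed, beside 5.81% of all genes. That gene was Serpinh1, 1.55-fold lower in shRNA replicates 5 to 7 than in wild type (log2 difference -0.64, SE 0.12, adjusted p = 0.00968), and with sex as a covariate and without replicate 8 it did not pass (adjusted p = 0.564).

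Untreated mutants were compared with wild-type hearts, which had received the control virus, so genotype and virus differ together. These are the same 3 wild-type hearts as above. Serpina3n rose (5.29-fold, SE 0.72 on the log2 scale, adjusted p = 0.0253) and Serpina1b fell (2.44-fold, -1.28, SE 0.40, adjusted p = 0.0320), beside 1.54% of all genes that rose and 19.2% that fell. Both calls were lost without wild-type replicate 3 or 4 or any 1 of the untreated hearts (adjusted p from 0.0524 to 0.204). After alignment without replicate 8, 10 of 20 rose and 2 fell, beside 18.7% and 21.1% of all genes. Serpinf1 (3.49-fold, adjusted p = 5.76e-06) and Serpinb1c (4.86-fold, 0.00177) were among those that rose, and Serpini1 fell 1.33-fold (0.0389). Hearts labelled shRNA against untreated mutants gave 2 serpins that rose, Serpini1 and Serpina1b (2.02-fold, adjusted p = 0.0311), and 1 that fell, Serpinb1c (4.16-fold, adjusted p = 0.0349), beside 53.6% of all genes that rose and 1.21% that fell. The rise of Serpina1b was lost without any 1 of the untreated hearts, and the fall of Serpinb1c without untreated replicate 9 or 10 or shRNA replicate 5, 6 or 7 (adjusted p from 0.0602 to 0.116). After alignment without replicate 8, 1 rose, again Serpini1, and 10 fell, beside 25.6% and 23.9% of all genes. In this setting Serpinf1 fell 4.47-fold (adjusted p = 5.67e-07) and Serpina3n 7.34-fold (adjusted p = 0.000530). The direction of Serpinb6a differed between settings, from 1.08-fold higher as deposited (adjusted p = 0.725) to 1.62-fold lower aligned without replicate 8 (adjusted p = 5.62e-05).

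Markers of other cell types moved with the groups. The fibroblast markers, 10 of 10 tested, summed to 2029 to 2757 FPKM in wild-type hearts, 3074 to 4376 in untreated mutants, 3454 to 5680 with control virus, 2177 to 3696 in shRNA replicates 5 to 7 and 6914 in replicate 8. Of these, 4 rose in the mutant under control virus as deposited and 9 aligned without replicate 8. The macrophage markers, 11 of 12 in the table, summed to 408 to 458 FPKM in wild type, 773 to 968 in untreated mutants, 973 to 1752 with control virus, 334 to 661 in shRNA replicates 5 to 7 and 2544 in replicate 8. Of these, 3 rose and 1 fell as deposited, and 10 rose and 1 fell aligned without replicate 8. Of all genes 2.15% rose and 7.35% fell as deposited, and 19.5% and 20% did aligned without replicate 8. Cardiomyocyte markers were present at 40859 FPKM or more in every library, and their sums in mutants without the shRNA, at most 68581 FPKM, lay below those of the other libraries, at least 79775 FPKM. Col1a1 and Col1a2 stand in both the fibroblast and the collagen list, and C1qa in both the macrophage and the complement list. The part of fibroblast and macrophage RNA in the serpin differences was not tested.

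Acute phase genes and the cytokine pathway that induces them were read from a list of 36, of which 22 were tested. As deposited 6 rose and 0 fell in the mutant under control virus, with a list median of 0.52 against -0.14 for all genes. Timp1 was 17.0-fold higher (adjusted p = 0.00980), Spp1, or osteopontin, 5.39-fold (0.0335), Saa3 4.69-fold (0.0193) and Ptx3 3.40-fold (0.0343). For the shRNA label 3 fell and 0 rose as deposited, among them Timp1 (8.35-fold, adjusted p = 0.00835) and Saa3 (4.09-fold, adjusted p = 0.00703). Aligned without replicate 8, 14 of 21 rose in the mutant and 16 of 21 fell with the label, and 0 passed in the opposite direction. Beside these, 2.15% of all genes rose in the mutant and 1.66% fell with the label as deposited, and 19.5% and 23.7% did aligned without replicate 8.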

How the data were processed

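PolyA RNA of 13 mouse hearts had been sequenced with 100-base paired reads per the labels' protocols, and 11 small RNA libraries of the series were not used because they hold no serpin row. Per the submitters' processing notes, FastQC 0.11.2, STAR 2.40, Cufflinks 2.2.1 and Cuffdiff were used with build mm9, with no order or role given. The deposited values are FPKM in 1 column per library. Annotation, filters, strand, scaling and numbers of reads were not given in the sources used here. Depth is therefore unknown, no counting error can be given, and a value of 0 can be a failed estimate. Groups were taken from the sample names, since the genotype field was the same for all samples. The p-values measure the spread between these hearts.

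Values were used as log2(FPKM + 1). The genes that averaged 1 FPKM or more over 13 libraries were tested in 1 model of 4 groups (limma 3.58.1 in R 4.3.3, lmFit, contrasts.fit and eBayes with a trend, two-sided), with Benjamini-Hochberg adjustment over all tested genes of a comparison and calls at an adjusted p under 0.05. Folds are of FPKM + 1 and understate changes of low genes. Alignment shifted each library to a common median log2 value over genes above 0 in every library, and the mean of at least 1 FPKM was taken again where a library was left out. Sex was read from Ddx3y (male above 5 FPKM). A single serpin row is not reported here and is left out of the counts of members, though it stayed in the fit. Named are the other tested serpins, the rows below the mean that reached 1 FPKM in a library, up to 4 genes of each of 5 lists with the smallest p among those that passed in the mutant, 6 fixed partner genes, Alb, Apoa1, Ttr and the label checks. A planned list of serpins with the most similar profile was not made, because the libraries fall into clusters. The members, lists and alternatives were chosen with earlier results of these data known. Names and promoters came from RefSeq on GRCm38.p6, in which all 62 symbols used are current. The procedure was tested on simulated data.

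Alternatives were a pseudocount of 0.1, a mean of 5 FPKM or no filter, alignment, quantile normalization, equal FPKM totals, the compared groups alone, robust eBayes, sex as a covariate, a replicate block, each library left out in turn, and shRNA replicate 8 left out together with alignment or with sex.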

Additional observations from a re-analysis of the deposited data

Results flagged for a closer look

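In the group of 4 hearts labelled shRNA, replicate 8 lay far from the other 3 for 6 of 20 tested serpins, in FPKM as deposited and without logs. The measure was the gap to its nearest neighbour as a share of the group's range (above the 95% critical value of Dixon's test). The ratios were 0.959 for Serpina3h, 0.951 for Serpinb9b, 0.935 for Serpina3n, 0.930 for Serpinb1c, 0.900 for Serpinf1 and 0.888 for Serpina1b, with replicate 8 the highest each time. In aligned values Serpina1b was 1.84 FPKM in replicate 8, below replicate 5 (2.08 FPKM) and so not outlying. For the other genes named here replicate 8 stayed the highest of its group when aligned. Chance alone gives such a gap in about 1 of 20 groups if values are normally distributed, and genes of 1 library are not independent of each other. The same library had 611 FPKM of Serpinh1 and the largest upward shift of its median, 0.80 on the log2 scale. It was also the only heart of its group without hMyl2 and the only female one. Which of these belongs with the serpin values was not tested.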

How the results depend on the processing

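Of 120 results for single genes over 6 comparisons, 10 passed as deposited, and 0 of these passed under every one of 25 alternatives. For the mutant against wild type, both given control virus, 2 serpins passed as deposited, against 0 with no filter on low values or with sex as a covariate, 1 with a mean of 5 FPKM or robust eBayes, 11 aligned, 10 by quantile normalization or with only the groups compared, 12 at equal FPKM totals, 15 aligned without shRNA replicate 8 and 6 with sex and without replicate 8. For shRNA against control virus, 3 passed as deposited, 10 aligned, by quantile normalization or at equal totals, and 12 aligned without replicate 8. With sex as a covariate 3 passed there, all higher with the label. With sex and without replicate 8 it was 4, all lower with the label. Untreated against wild type gave 2 as deposited, 1 with a pseudocount of 0.1, a mean of 5 FPKM or robust eBayes, 0 with no filter, 8 aligned, 10 by quantile normalization, 9 at equal totals or with only the groups compared, 4 with sex, 12 aligned without replicate 8 and 7 with sex and without replicate 8. Hearts labelled shRNA against untreated gave 3 as deposited, 1 with no filter, 8 aligned, 9 by quantile normalization, 11 at equal totals or aligned without replicate 8, and 7 with sex and without replicate 8. Hearts labelled shRNA against wild type gave 0 as deposited and 1 aligned, or with sex, without replicate 8. Control virus against no virus gave 0 as deposited and 1 with only the groups compared. Calls over all genes moved between settings too. For mutant against wild type under control virus they were 1233 of 12980 as deposited and 3150 aligned. Aligned without replicate 8 they were 5082 of 12853. For settings whose share of all genes is not given here, a count of serpins does not tell serpins from all genes. Where no filter was used, more genes were tested. Other causes were not tested.

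With each library left out in turn, the counts ran from 1 to 12 for mutant against wild type, 1 to 10 for shRNA against control virus, 0 to 7 for untreated against wild type and 1 to 7 for shRNA against untreated, and stayed at 0 for the other 2 comparisons. The highest count of each came without shRNA replicate 8, and with that library kept the counts ran from 1 to 2, 1 to 4, 0 to 4 and 1 to 4. Without replicate 8, calls over all 12853 genes were 2709, 5088, 4025 and 6855 in the same order. As deposited they were 1233, 4545, 2690 and 7113 of 12980. In mutant against wild type, wild-type replicate 3 and control-virus replicates 1 and 2 each left 1 when removed. For shRNA against control virus, control-virus replicate 1 left 1. For untreated against wild type, wild-type replicate 3 and each untreated replicate left 0, and without shRNA replicate 5 there were 4. Without wild-type replicate 4 the 1 call was Serpina3k, lower in the mutant and not called as deposited. For shRNA against untreated, untreated replicates 9 and 10 left 1 each. In shRNA against untreated, Serpinb6a went from 0.11 (log2) as deposited to -0.63 aligned, -0.77 by quantile normalization, -0.94 at equal totals and -0.70 aligned without replicate 8. At equal totals Serpina3c was -0.62 and Serpinb6b -0.72, from positive values. Replicate numbers 2 and 3 name different animals in the 2 control-virus groups and did not deviate together (correlations -0.20 and -0.11). With a replicate block 2 serpins passed, as without it. Unknown depth limits what can be said of genes near 1 FPKM.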
